A study of Mus musculus with 4 samples.

Results

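The enzymes that turn arachidonic acid into leukotrienes and prostaglandins were followed on 4 arrays of splenic dendritic cells (DC). The 9 genes were Alox5ap, Alox5, Lta4h and Ltc4s of the leukotriene branch, the cyclooxygenase genes Ptgs1 and Ptgs2, and the terminal synthase genes Ptges, Hpgds and Tbxas1. Every probe set annotated with exactly 1 of these symbols was taken, which gave 12 of 45037 probe sets and 8 of the 17097 genes measured this way. No probe set listed under Ptgs1 alone was found, so its level is not analysed here. RNA came from DC of MARCO-/- mice with LPS, WT mice with LPS, MARCO-/- mice with PBS and WT mice with PBS, with 1 array each. LPS is a bacterial ligand of TLR4, and both genotypes carry the background labelled C56BL/6. DC were selected from spleens of adult, sex-matched mice by their CD11c, pooled over several animals and cultured overnight. A positive selection of this kind can keep other CD11c-bearing cells. MARCO is a scavenger receptor of macrophages and DC, and is absent from the MARCO-/- mice.

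Arachidonic acid is cut from membrane phospholipids by phospholipase A2 and then enters 1 of several routes. In the leukotriene route, 5-lipoxygenase works with its membrane partner FLAP to make leukotriene A4, which is turned into the neutrophil attractant leukotriene B4 or into the cysteinyl leukotrienes. In the prostanoid route, cyclooxygenases make prostaglandin H2, from which separate synthases make prostaglandin E2, prostaglandin D2, prostacyclin and thromboxane. These lipids are known to act on the migration, maturation and cytokine output of DC.

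Each value below is an intensity on a linear scale, normalized by the authors with RMA, and a fold is a ratio of intensities between arrays. With 1 array per condition there is no spread within a condition and no test was made, so calls rest on a ratio of 2-fold or more in either direction, the cut-off named in the methods of the study. The median of all intensities was 4.87, and values near it lie at the background, where a fold is set by that floor. Of the 12 probe sets, 8 had a mean log2 intensity above the median. The other 4, all 3 of Ptges and 1 of Lta4h, had intensities between 2.06 and 4.88 on all arrays. The deleted gene, Marco, had 4.25 in MARCO-/- and 3.15 in WT with LPS, and 3.95 in MARCO-/- and 8.05 in WT with PBS. Its signal was thus lower in MARCO-/- with PBS and near the background on both LPS arrays, where it does not check the genotype. In WT the Marco signal was 2.55-fold lower with LPS than with PBS, a fold set by that background. The paper reports the other direction by RT-PCR, with MARCO induced by LPS in splenic DC. Where the probe set lies relative to the deletion was not given. As to the label of the cells, 7 genes of conventional DC were all above the median on every array. The 10 macrophage and 4 monocyte markers described below were also above it on every array. This criterion therefore does not tell DC from these cells. The MHC class II gene H2-Ab1 had 1008 in MARCO-/- and 996.1 in WT with LPS, and 3710 in MARCO-/- and 3356 in WT with PBS. Itgax, which encodes CD11c itself, had 16.4 in MARCO-/- and 12.9 in WT with LPS, and 621.4 in MARCO-/- and 548.3 in WT with PBS.

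The promoters of the members that passed 2-fold with LPS are shown because these genes were lower together in both genotypes or in 1 of them. RefSeq windows matched 8 of the 9 members, all but Alox5ap, in build GRCm38.p6. Each window holds 250 bases before and 30 bases from the annotated start, 280 in all, 5′ to 3′. Capitals mark matches, on either strand, to 6 short motifs, which follow the sequences with their shares, 5 by their letters and NF-κB by its name.
Ptgs2, chr1:150099781-150100060, plus strand: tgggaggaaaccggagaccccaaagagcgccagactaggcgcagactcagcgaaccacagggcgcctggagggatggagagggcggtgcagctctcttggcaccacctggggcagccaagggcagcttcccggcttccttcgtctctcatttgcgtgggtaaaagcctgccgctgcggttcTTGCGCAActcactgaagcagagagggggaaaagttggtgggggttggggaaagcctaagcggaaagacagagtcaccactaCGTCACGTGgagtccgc
Hpgds, chr6:65144701-65144980, minus strand: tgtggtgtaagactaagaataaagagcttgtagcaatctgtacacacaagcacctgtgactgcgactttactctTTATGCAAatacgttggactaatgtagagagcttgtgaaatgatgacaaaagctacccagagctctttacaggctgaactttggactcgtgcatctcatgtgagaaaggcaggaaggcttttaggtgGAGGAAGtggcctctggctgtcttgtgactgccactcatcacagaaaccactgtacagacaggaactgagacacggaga
Tbxas1, chr6:38918736-38919015, plus strand: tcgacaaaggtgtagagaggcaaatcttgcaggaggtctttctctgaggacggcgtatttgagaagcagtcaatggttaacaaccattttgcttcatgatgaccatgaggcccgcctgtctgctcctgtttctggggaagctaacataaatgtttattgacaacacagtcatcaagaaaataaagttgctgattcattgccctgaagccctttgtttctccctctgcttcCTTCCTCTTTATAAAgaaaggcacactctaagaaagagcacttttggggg
Lta4h, chr10:93453146-93453425, plus strand: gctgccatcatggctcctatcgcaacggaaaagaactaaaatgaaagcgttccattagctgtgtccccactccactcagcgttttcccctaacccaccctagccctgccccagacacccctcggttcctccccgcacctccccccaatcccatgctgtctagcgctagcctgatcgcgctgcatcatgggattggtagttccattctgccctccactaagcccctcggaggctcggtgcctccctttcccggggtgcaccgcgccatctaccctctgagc
In the window of Ptgs2, the C/EBP letters begin 69 bases before the start. The letters of the cyclic AMP core and of the E-box overlap there, and begin at bases 14 and 17 counted from the start. All positions count from the annotated start, and where transcription begins in these cells was not measured. A motif placed after that start need not lie within the transcript. Hpgds has the C/EBP letters 176 bases and the PU.1 letters 49 bases before the start, and Tbxas1 has the PU.1 letters 20 bases before it, followed by 2 overlapping TATA matches at 13 and 11 bases. The window of Lta4h holds none of the 6 motifs. The PU.1 letters were also in the windows of Ltc4s, which did not pass 2-fold with LPS, and of Ptgs1, which had no value. They are thus not particular to the members that were lower with LPS. Of 32851 windows of the same length, 10.4% held the C/EBP letters TTGCNNAA. The PU.1 letters GAGGAAG were in 12.2% of these windows. The TATA box was searched as TATAAA and was in 13.1%. The core of the cyclic AMP element, TGACG, was in 19.9%. The E-box CACGTG was in 6.79%. The NF-κB consensus, which allows alternative bases at several positions, was in 7.94%. No window of a member held the NF-κB consensus, but bases more than 250 before the start were not searched. A match describes these letters and is not a measured binding site.

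Most members measured above the background had less signal with LPS than with PBS. In MARCO-/- DC, 6 of the 12 member probe sets were lower with LPS by 2-fold or more and none was higher, where 4.98% of all probe sets were lower. In WT DC 5 of the 12 were lower and none was higher, where 7.97% of all probe sets were lower. In these bulk samples fewer cells of a type and less RNA per cell cannot be told apart. Among all probe sets with a mean log2 intensity above the median, 9.48% were lower in MARCO-/- and 15.2% in WT. The members were chosen with these comparisons known, so nothing is read from their share. They stand for 5 genes in MARCO-/- (Alox5ap, Lta4h, Ptgs2, Hpgds and Tbxas1) and 4 in WT, the same without Tbxas1. The median log2 ratio over the 12 probe sets was -0.96 in MARCO-/- and -0.65 in WT, against 0.00 and 0.03 over all probe sets.

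**Figure D1:**
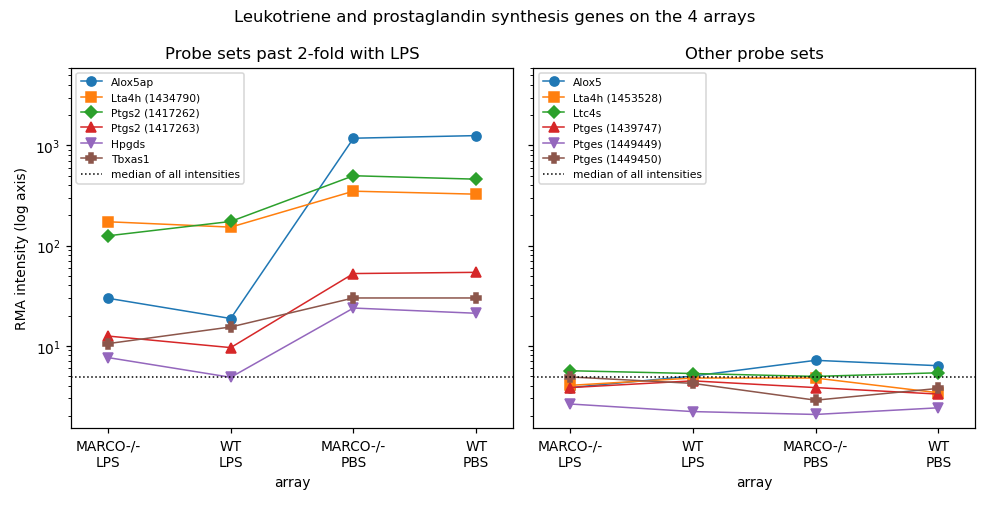
RMA intensity (log axis) of the 12 member probe sets on the 4 arrays, each point being 1 array; probe sets past 2-fold with LPS are on the left, the others on the right, and the dotted line is the median of all intensities, 4.87. Alox5ap lies at 29.8 and 18.7 on the LPS arrays of MARCO-/- and WT and at 1182 and 1255 on the PBS arrays of MARCO-/- and WT, while the probe sets on the right stay between 2.06 and 7.15.

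The largest change was that of Alox5ap, which encodes FLAP, the membrane protein that presents arachidonic acid to 5-lipoxygenase. Its intensity was 29.8 in MARCO-/- and 18.7 in WT with LPS, and 1182 in MARCO-/- and 1255 in WT with PBS. Both LPS arrays lay far below both PBS arrays. LPS was 39.6-fold lower than PBS in MARCO-/- and 67.2-fold lower in WT, and the LPS levels stayed above the median of all intensities. Between genotypes Alox5ap was under 2-fold, at 1.60-fold higher in MARCO-/- with LPS and 1.06-fold lower with PBS.

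Lta4h encodes the hydrolase that makes leukotriene B4. Its brighter probe set had 173.1 in MARCO-/- and 153 in WT with LPS, and 349.6 in MARCO-/- and 326.4 in WT with PBS. LPS was 2.02-fold lower in MARCO-/- and 2.13-fold lower in WT, just past the threshold, and centring each array on its median put the MARCO-/- ratio just under it (log2 ratio -0.96). The other Lta4h probe set lay at the background, between 3.39 and 4.76.

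Alox5 itself, which encodes 5-lipoxygenase, had 3.82 in MARCO-/- and 4.98 in WT with LPS, and 7.15 in MARCO-/- and 6.32 in WT with PBS. These values lie close to the median, and neither the 1.87-fold difference with LPS in MARCO-/- nor the 1.27-fold one in WT passed the threshold. Ltc4s, the synthase of the cysteinyl leukotriene C4, had 5.63 in MARCO-/- and 5.28 in WT with LPS, and 4.94 in MARCO-/- and 5.37 in WT with PBS, without a difference past 1.14-fold. With signals this near the background a lower level could hardly have been seen, whereas a higher one could have been.

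Ptgs2 encodes cyclooxygenase-2, the form that is known to be induced by inflammatory stimuli in macrophages. Here its signal was lower with LPS. The brighter probe set had 125.3 in MARCO-/- and 174.3 in WT with LPS, and 498.8 in MARCO-/- and 460.8 in WT with PBS. This was 3.98-fold lower with LPS in MARCO-/- and 2.64-fold lower in WT. The dimmer probe set had 12.5 in MARCO-/- and 9.58 in WT with LPS, and 52.6 in MARCO-/- and 54.1 in WT with PBS, or 4.22-fold and 5.65-fold lower with LPS. Both probe sets put both LPS arrays below both PBS arrays, but they disagree on which genotype had the larger change. Between genotypes with LPS the brighter probe set was 1.39-fold lower and the dimmer one 1.30-fold higher in MARCO-/-.

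Of the terminal synthases, Hpgds and Tbxas1 were lower with LPS. Hpgds makes prostaglandin D2 in hematopoietic cells, and had 7.62 in MARCO-/- and 4.84 in WT with LPS, and 23.8 in MARCO-/- and 21.1 in WT with PBS. It was 3.13-fold lower with LPS in MARCO-/- and 4.36-fold lower in WT, where the LPS value lies at the background. Tbxas1 makes thromboxane A2 and had 10.5 in MARCO-/- and 15.4 in WT with LPS, and 30 on both PBS arrays. It was 2.86-fold lower with LPS in MARCO-/- and just missed the threshold in WT, at 1.95-fold lower. An offset of 16 on all intensities brought the log2 ratios with LPS under 2-fold, to -0.75 in MARCO-/- and -0.83 in WT for Hpgds and to -0.80 in MARCO-/- for Tbxas1. The inducible prostaglandin E2 synthase gene Ptges had values from 2.06 to 4.88 over its 3 probe sets and all arrays, with no difference past 1.71-fold, and none of them was called higher with LPS.

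**Figure D2:**
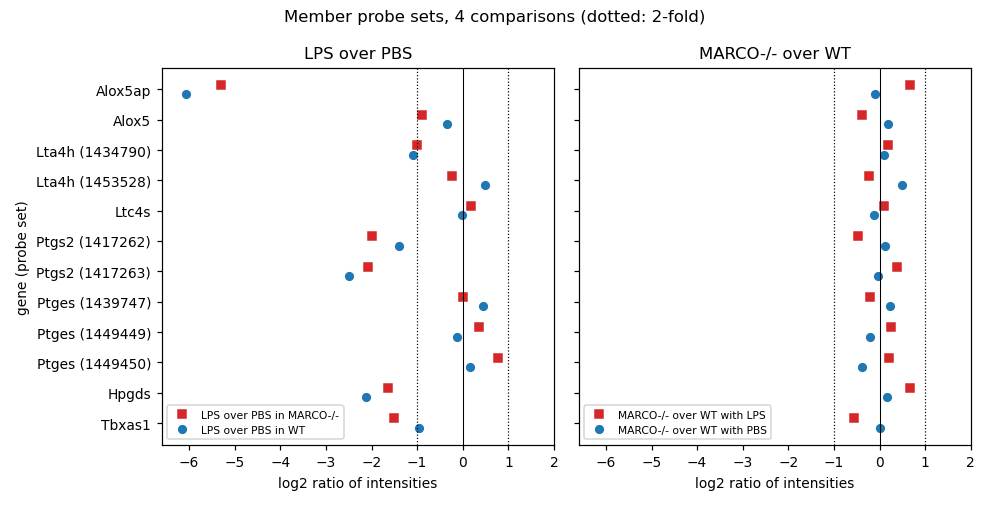
log2 ratio of each member probe set for LPS over PBS (left) in MARCO-/- (squares) and WT (circles), and for MARCO-/- over WT (right) with LPS (squares) and with PBS (circles); dotted lines mark 2-fold. Alox5ap reaches -5.31 in MARCO-/- and -6.07 in WT on the left, while no point on the right passes a dotted line.

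No member separated the genotypes at 2-fold. With PBS, 0 of 12 differed by 2-fold or more between MARCO-/- and WT, where 0.955% of all probe sets did. Their ratios ran between 0.761 and 1.40, with a median log2 ratio of 0.05. With LPS, 0 of the 12 were 2-fold apart, where 2.85% of all probe sets were, and the ratios ran between 0.682 for Tbxas1 and 1.60 for Alox5ap. The fold change with LPS itself was compared between the genotypes as well. None of the 12 probe sets had LPS ratios that were 2-fold apart, and the widest gap, 1.69-fold, was that of Alox5ap. Over all probe sets, 5.82% had LPS ratios at least 2-fold apart. With 1 array per condition a difference of this size cannot be set against the spread between cultures.

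Markers of other splenic cells also moved with LPS. Of 10 macrophage markers 9 were at least 2-fold lower with LPS in both genotypes. The sum of the 10 was 595.4 in MARCO-/- and 405 in WT with LPS, and 3038 in MARCO-/- and 1842 in WT with PBS. Most of the sum with LPS came from Spic, the marker that was not lower, with 434 in MARCO-/- and 246.8 in WT. In MARCO-/-, C1qa, C1qb, C1qc and Fcna fell further than Alox5ap (log2 ratios -6.24, -5.88, -5.6 and -5.45). In WT no macrophage marker did. Between genotypes with LPS, 2 of the 10 were higher and 3 lower in MARCO-/-. With PBS, 2 of the 10 were higher in MARCO-/- and 0 lower. These were C1qb and C1qc, at log2 ratios of 1.04 and 1.15. Of 8 neutrophil markers 4 were lower in both, with sums of 44.67 in MARCO-/- and 68.13 in WT with LPS, and 320 in MARCO-/- and 405.1 in WT with PBS. Of 4 monocyte markers 3 were lower, with sums of 102 in MARCO-/- and 83.4 in WT with LPS, and 518.4 in MARCO-/- and 516.8 in WT with PBS. Of the 7 conventional DC genes 5 were lower in MARCO-/- and 4 in WT, and 1 was higher in MARCO-/-, with sums of 6174 in MARCO-/- and 6782 in WT with LPS, and 16520 in MARCO-/- and 15820 in WT with PBS. The higher one was Zbtb46, a transcription factor of conventional DC, with 118.4 in MARCO-/- and 67.5 in WT with LPS, and 45.4 in MARCO-/- and 42.3 in WT with PBS. Alox5ap, Ptgs2, Hpgds and Tbxas1 are also expressed by macrophages or neutrophils, and the part of these cells in the change was not tested.

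Markers of mast cells and platelets, cells known for Hpgds, Ltc4s and Tbxas1, had low values apart from Kit. These 3 members were dim as well, at most 23.8 for Hpgds, 5.63 for Ltc4s and 30 for Tbxas1. The highest platelet marker value was 26.3, for Pf4 in WT with LPS. The part of mast cells and platelets in the signal of these members was not tested. Of 9 mast cell and basophil markers Cpa3, Mcpt8, Mcpt4, Ms4a2 and Fcer1a were at or below the median of all intensities on all arrays. None of the 9 passed 2-fold with LPS in either genotype. Their sum was 340.5 in MARCO-/- and 136.4 in WT with LPS, and 238.2 in MARCO-/- and 225.6 in WT with PBS, most of it from Kit. The sum of 7 platelet markers was 46.85 in MARCO-/- and 56.1 in WT with LPS, and 70.83 in MARCO-/- and 57.47 in WT with PBS, with Gp1bb and Gp6 at or below the median throughout. With LPS, 1 of these 7 (Itgb3) was lower in MARCO-/-, while in WT 2 (Itgb3 and Ppbp) were lower and 1 (Pf4) was higher. Fibroblast markers followed another order, with sums of 32.14 in MARCO-/- and 1478 in WT with LPS, and 450.8 in MARCO-/- and 26.74 in WT with PBS, which none of the called members shared.

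**Figure D3:**
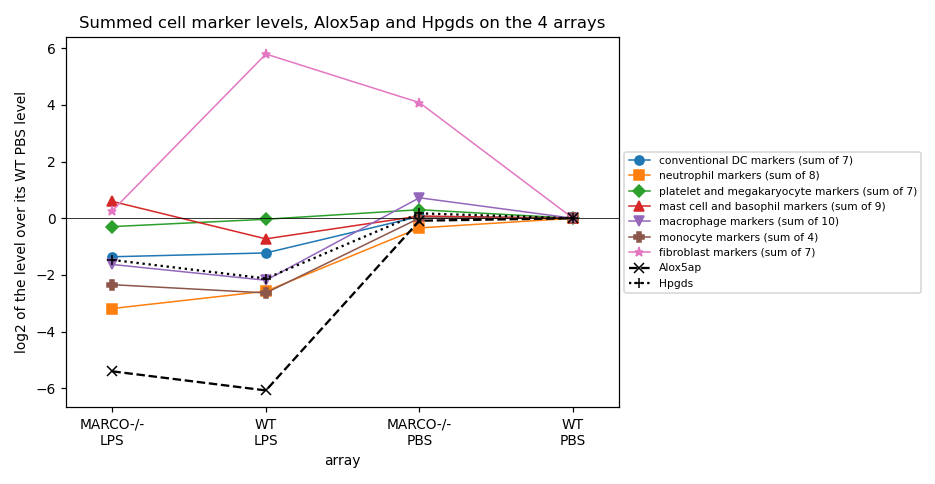
log2 of the summed intensity of 7 marker lists, and of Alox5ap and Hpgds, over the level of the same list or gene on the WT PBS array, which lies at 0; each point is 1 array. The macrophage, monocyte and neutrophil sums lie below 0 on both LPS arrays, and Alox5ap lies below these sums. The macrophage sum with LPS is mostly Spic, and some single macrophage markers fell further than Alox5ap in MARCO-/-. The fibroblast sum is high on the WT LPS and MARCO-/- PBS arrays.

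Other genes of the pathway moved both ways with LPS. Of 63 genes listed for release, synthesis, inactivation, transport and reception, 55 had a probe set, and each was taken by its brightest one. In MARCO-/- DC 7 were at least 2-fold higher and 13 lower with LPS, where 6.32% of all genes were higher and 5.98% lower. In WT 5 were higher and 13 lower, where 6.2% of all genes were higher and 8.31% lower. The 13 lower genes were the same in both genotypes. The median log2 ratio of the list was -0.20 in MARCO-/- and 0.09 in WT, against 0.00 and 0.05 over all genes. Between genotypes, 1 of the 55 was 2-fold apart with PBS (1.05% of all genes) and 2 with LPS, Cyp4f18 and Mgll (3.4% of all genes).

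**Figure D4:**
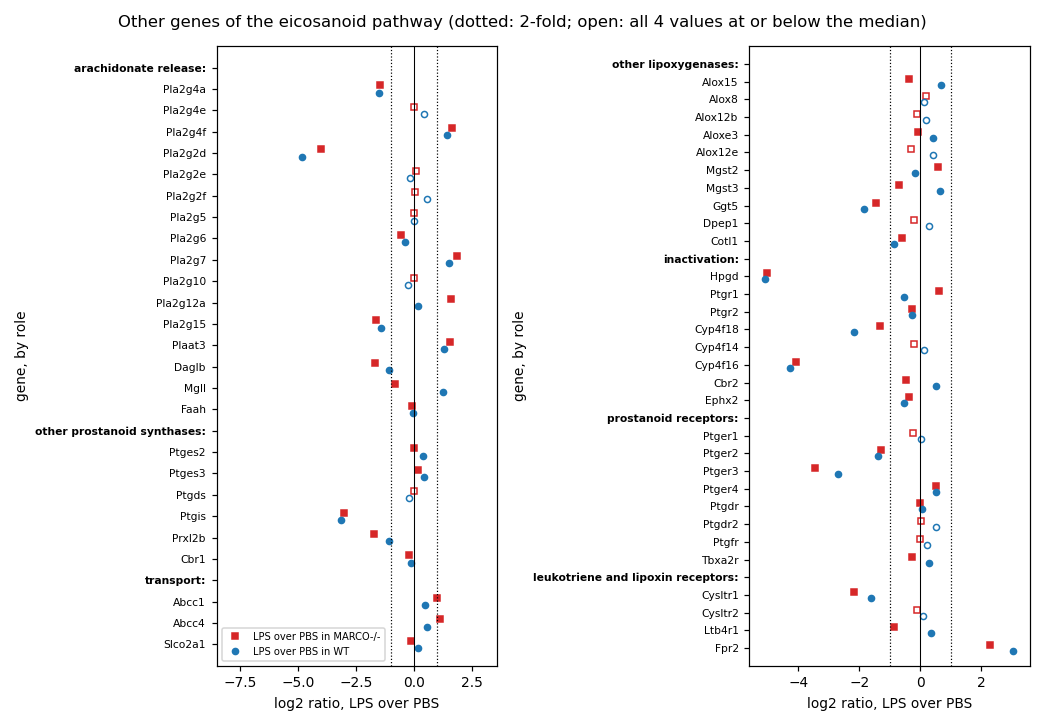
log2 ratio of LPS over PBS for 55 other genes of the pathway by role, each by its brightest probe set, in MARCO-/- (squares) and WT (circles); dotted lines mark 2-fold and open symbols are genes with all 4 values at or below the median of all intensities. Hpgd, Pla2g2d and Cyp4f16 lie left of -4 in both genotypes, and Fpr2 lies farthest right, at 2.28 in MARCO-/- and 3.03 in WT.

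Of 16 genes listed under arachidonate release, 4 were lower and 4 higher with LPS in each genotype. The higher ones include Pla2g7, whose enzyme is known for another substrate, platelet-activating factor. Pla2g4a, which encodes the cytosolic phospholipase A2 that feeds both routes, had 16.1 in MARCO-/- and 12.1 in WT with LPS, and 44.1 in MARCO-/- and 34.9 in WT with PBS (2.74-fold and 2.88-fold lower). The secreted phospholipase gene Pla2g2d had 5.39 in MARCO-/- and 3.67 in WT with LPS, and 87.1 in MARCO-/- and 103.7 in WT with PBS, and its second probe set was lower too, by 10.5-fold in MARCO-/- and 12-fold in WT. The Pla2g2d values with LPS lie at the background. Daglb and Pla2g15 were the other lower genes, by between 2.12-fold and 3.21-fold. In the other direction, Pla2g7, which encodes the hydrolase of platelet-activating factor, had 749.4 in MARCO-/- and 390.4 in WT with LPS, and 204.6 in MARCO-/- and 135.1 in WT with PBS (3.66-fold and 2.89-fold higher). Plaat3, a phospholipase of fat cells and other tissues, had 269.5 in MARCO-/- and 225.8 in WT with LPS, and 91.5 in MARCO-/- and 90.1 in WT with PBS (2.95-fold and 2.50-fold higher). Pla2g4f was 3.13-fold higher in MARCO-/- and 2.71-fold higher in WT, with PBS values at the background. Pla2g12a passed 2-fold in MARCO-/- alone, at 3.05-fold higher against 1.13-fold in WT, and Mgll in WT alone.

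Among the other prostanoid synthases, Ptgis, which makes prostacyclin, had 3.64 in MARCO-/- and 3.55 in WT with LPS, and 29.2 in MARCO-/- and 30.8 in WT with PBS. It was 8.03-fold lower with LPS in MARCO-/- and 8.67-fold lower in WT, with LPS values at the background. Prxl2b, a prostamide and prostaglandin F synthase, was 3.24-fold lower in MARCO-/- and 2.09-fold lower in WT. The prostaglandin E synthase genes Ptges3 and Ptges2 were under 2-fold in both genotypes. Ptges3 had 1043 in MARCO-/- and 1108 in WT with LPS, and 922.2 in MARCO-/- and 822.6 in WT with PBS, so that it kept its signal.

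Of 10 other genes of the lipoxygenase and leukotriene routes, 1 passed 2-fold with LPS. This was Ggt5, whose enzyme converts leukotriene C4 to leukotriene D4, and which had 4.17 in MARCO-/- and 2.99 in WT with LPS, and 11.4 in MARCO-/- and 10.6 in WT with PBS. The LPS values lie at the background, which sets the folds of 2.74 lower in MARCO-/- and 3.56 lower in WT. Cotl1, an actin-binding protein that also binds 5-lipoxygenase, had 672.2 in MARCO-/- and 555.2 in WT with LPS, and 1015 on both PBS arrays, under 2-fold. Of its 4 dimmer probe sets 1 was called lower with LPS in MARCO-/-, at 2.0-fold, with 87.6 in MARCO-/- and 97.1 in WT with LPS, and 175.4 in MARCO-/- and 135.6 in WT with PBS. The lipoxygenase genes Alox8, Alox12b and Alox12e had no value above the median of all intensities.

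Of 8 genes of inactivation, 3 were lower with LPS and none was higher. Hpgd, which encodes the dehydrogenase that inactivates prostaglandin E2, had 2.95 in MARCO-/- and 2.82 in WT with LPS, and 94.9 in MARCO-/- and 95.6 in WT with PBS. The LPS values lie at the background, which sets the folds of 32.2 in MARCO-/- and 33.9 in WT, and a second, dim probe set missed 2-fold. Cyp4f18, which oxidizes leukotriene B4 in mouse neutrophils, had 17.9 in MARCO-/- and 7.15 in WT with LPS, and 44.4 in MARCO-/- and 32.2 in WT with PBS. With LPS, MARCO-/- was 2.50-fold above WT. Cyp4f16, of the same cytochrome family, was 16.7-fold lower in MARCO-/- and 19.4-fold lower in WT. Of the transporters, Abcc1, which exports leukotriene C4, had 225.1 in MARCO-/- and 161.3 in WT with LPS, and 111.3 in MARCO-/- and 116.1 in WT with PBS, or 2.02-fold and 1.39-fold higher with LPS. Abcc4, which exports prostanoids, was 2.17-fold higher in MARCO-/- and 1.49-fold higher in WT.

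The receptors fell into both groups. Of 8 prostanoid receptor genes Ptger3 and Ptger2, for prostaglandin E2, were lower with LPS in both genotypes and none was higher. Ptger3 had 2.86 in MARCO-/- and 3.9 in WT with LPS, at the background, and 31.2 in MARCO-/- and 25.6 in WT with PBS. Ptger4, the prostaglandin E2 receptor known for its role in DC migration, had 484.7 in MARCO-/- and 433 in WT with LPS, and 334.9 in MARCO-/- and 303.3 in WT with PBS, under 2-fold. Cysltr1, a receptor of cysteinyl leukotrienes, had 4.20 in MARCO-/- and 4.89 in WT with LPS, and 18.7 in MARCO-/- and 15.2 in WT with PBS (4.46-fold and 3.10-fold lower), although its second probe set missed 2-fold in WT. Fpr2, a receptor of formyl peptides that also binds lipoxin A4, went the other way. It had 286.5 in MARCO-/- and 144.5 in WT with LPS, and 59 in MARCO-/- and 17.7 in WT with PBS, or 4.85-fold and 8.16-fold higher with LPS. It was also the 1 listed gene past 2-fold between genotypes with PBS, at 3.33-fold higher in MARCO-/-.

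The genes whose pattern over the 4 arrays was most like that of Alox5ap or Ptgs2 were searched among 1592 genes with a highest log2 intensity of at least 8. The measure was the root-mean-square difference of the log2 values, each gene centred over its 4 arrays. For Alox5ap the nearest was Itgax, at 0.234, followed by Xcr1 at 0.355, Ifitm6 at 0.418, Ccnd1 at 0.469 and Nr4a1 at 0.48. Xcr1, a chemokine receptor of conventional DC 1, had 3.84 in MARCO-/- and 4.14 in WT with LPS, and 218.7 in MARCO-/- and 308.9 in WT with PBS. For the brighter probe set of Ptgs2 the nearest were Gmfg at 0.133, Bcl11a at 0.159, Coro7 at 0.181, and H2-Ab1 and Asah1 at 0.185 each. With 4 arrays, 2 of them with LPS, such a likeness rests mainly on the size of the LPS change.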

How the data were processed

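RNA of splenic DC was measured on 4 Affymetrix arrays, 1 per condition. The authors normalized the scans with RMAexpress (version not given in the sources used here) and deposited 1 intensity per probe set. The deposited intensities are linear, and log2 ratios used no offset. The table lists 45141 probe sets, of which 104 are Affymetrix controls and were not analysed. The platform annotation gives exactly 1 symbol for 28898 of the other 45037, several for 551, and does not list 15588. In the longer gene lists each gene stands by its brightest probe set, by mean log2 intensity.

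With 1 array per condition no test was made, and the number of arrays limits the precision. Probe sets were called at 2-fold. The members, the gene lists, the alternatives and the naming rule were chosen with earlier results of these data known. All member probe sets were named, and other pathway genes that passed 2-fold with a value above the median, or were among the brightest of their role; genes given as not past 2-fold beyond this were chosen after their values were seen. Nearest genes were the 5 with the smallest root-mean-square log2 difference. Alternatives were centring of each array, quantile normalization, cyclic loess, an offset of 16, 2 filters on low values, 2 ways to use 1 value per gene, omission of x_at, s_at and a_at probe sets, and thresholds of 1.5-fold and 3-fold. A filter on the mean level was added after the data were seen. The NF-κB consensus replaced a stricter form after that form had been searched. The counting steps were tested on simulated data. Python 3.11.15, numpy 2.4.6, pandas 2.3.3, matplotlib 3.10.9, R 4.3.3 and limma 3.58.1 were used.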

Additional observations from a re-analysis of the deposited data

Results flagged for a closer look

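Mgll, which encodes the lipase that cleaves the endocannabinoid 2-arachidonoylglycerol, was singled out because its LPS change ran in opposite directions in the genotypes, by at least 1.5-fold each way. Its brightest probe set had 10.4 in MARCO-/- and 25.6 in WT with LPS, and 18.5 in MARCO-/- and 10.6 in WT with PBS, and the log2 ratio in MARCO-/- minus that in WT was -2.11. A second probe set had 5.18 in MARCO-/- and 12.1 in WT with LPS, and 8.43 in MARCO-/- and 7.14 in WT with PBS, a difference of -1.46. Mgst3, a microsomal glutathione transferase, was singled out in the same way, with 9.12 in MARCO-/- and 13.1 in WT with LPS, and 14.7 in MARCO-/- and 8.46 in WT with PBS, a difference of -1.32. None of these differences was tested, since there is 1 array per condition. The fibroblast marker sums given above were also highest on the WT LPS array and next on the MARCO-/- PBS array, and their part in these values was not tested. None of the 8 synthesis genes with a probe set met the same condition.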

How the results depend on the processing

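With LPS over PBS, 5 probe sets in each genotype stayed at least 2-fold lower as deposited and after centring, quantile normalization and cyclic loess: those of Alox5ap, Ptgs2 (both) and Hpgds in both genotypes, with Tbxas1 in MARCO-/- and Lta4h in WT. Centring put Lta4h under 2-fold in MARCO-/- (log2 ratio -0.96) and Tbxas1 at 2-fold lower in WT (log2 ratio -1.0). With the offset of 16 the count in MARCO-/- dropped to 3. Among probe sets with a highest log2 value of at least 8 it was 3 in each genotype, since 3 were left in the count. In WT it was 3 when the probe sets of a gene were averaged and 3 at a threshold of 3-fold. Between genotypes with LPS, 2 probe sets (Alox5ap and Hpgds) were higher at a threshold of 1.5-fold. The Hpgds value in WT with LPS, 4.84, lies at the background, and Tbxas1, 1.47-fold lower, just missed this threshold. The share of all probe sets past 1.5-fold was not computed, so nothing is read from this count. The number of members with LPS ratios 2-fold apart was 0 under each normalization and with the offset. Of 192 single ratios recomputed, 9 moved by over 1.5 times, each with the offset, and no called ratio changed sign. The 24 medians of the other pathway genes moved by less. No paired analysis was possible because the labels give no replicate numbers and each condition has 1 array. The paper describes several DC pools per genotype, each split between cultures with and without agonist. Which pools gave the RNA of the arrays was not given. The genotypes come from different mice, so a genotype difference cannot be told apart from one between pools. An additive fit of genotype and LPS over the 4 arrays, which would take the genotypes as repeats of each other, was not run. Signal over background limits how far Alox5, Ltc4s and Ptges could be seen to fall.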

Other observations

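Some other pathway genes had LPS ratios more than 2-fold apart between genotypes, and were chosen after their values were seen. Pla2g12a, a secreted phospholipase, had 17.7 in MARCO-/- and 9.63 in WT with LPS, and 5.80 in MARCO-/- and 8.53 in WT with PBS, which puts the LPS ratios 2.70-fold apart. Ptgr1, a reductase that inactivates prostaglandins and leukotriene B4, had 31.8 in MARCO-/- and 16.6 in WT with LPS, and 21.0 in MARCO-/- and 24.2 in WT with PBS (2.21-fold apart). Ltb4r1, the high-affinity receptor of leukotriene B4, had 4.81 in MARCO-/- and 6.28 in WT with LPS, and 8.71 in MARCO-/- and 4.96 in WT with PBS (2.29-fold apart), close to the background. Over all probe sets 5.82% had LPS ratios at least 2-fold apart, and none of these differences was tested.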
